A study of Caenorhabditis elegans with 59 samples.

Results

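The miR-51 family of Caenorhabditis elegans comprises miR-51, miR-52, miR-53, miR-54, miR-55 and miR-56. Members were taken by name as the 6 guide rows of a miRNA count table with 310 strands, in all 59 small-RNA sequencing (sRNA-seq) libraries of the series. The rule uses names only. The passenger strands of the same 6 hairpins, written with an asterisk (miR-52*), were read beside them.

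miRNAs pair through their seed, near the 5′ end, with sites in mRNAs, and miRNAs with one seed can repress the same mRNAs. The miR-51 family is abundant and broadly expressed in the worm, is related to miR-99 and miR-100 of vertebrates, and is needed in the embryo, where animals that lack all members die with a pharynx that fails to stay attached to the mouth. It has also been linked to developmental timing through its genetic interactions with other miRNAs. Each hairpin yields a guide, which is retained by Argonaute, and a passenger strand, which is discarded soon after processing, so the passenger strand is used as a readout of production.

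The question asked in the series was which miRNAs depend on EBAX-1, the worm ortholog of ZSWIM8 and substrate receptor of an E3 ubiquitin ligase that acts in target-directed miRNA degradation. All samples were whole animals, of mixed tissues, and a smaller share of cells and less RNA per cell cannot be told apart in them. The time course had 2 libraries each of control and ebax-1(tm2321), a null allele, at 8 stages. Another 4 libraries compared starved L1 larvae with a further null allele, ebax-1(ju699), with wild type, and 23 libraries came from L4 larvae with wild-type mir-43 or with 1 of 3 mutated forms of mir-43 (M1, M2 and M3), each with and without ebax-1(tm2321), in 3 libraries per genotype except for 2 of ebax-1(tm2321) alone. Early embryos were frozen right after bleaching, late embryos had a further 6 h in M9 buffer, and L1 larvae hatched and starved without food. Animals of the later stages had fed at 20 °C for about 16 h (L2), 28 h (L3), 42 h (L4) and 68 h (gravid adults). The germline-depleted adults carried glp-4(bn2) in both genotypes, which greatly reduces the germline at 25 °C, and had fed for 48 h. The gravid adult libraries were taken from earlier work, and the mir-43 libraries were sequenced on another instrument with other primers, so levels are not compared between experiments. In comparisons of gravid adults with L4 larvae or with glp-4(bn2) adults, stage or genotype and the source of the libraries cannot be told apart.

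Total miRNA counts were 1343153 to 20538418 per library in the time course, 2433129 to 3076485 in the ju699 experiment and 302789 to 16014208 in the mir-43 experiment. Of the stage markers, the miR-35–42 family, abundant in embryos, took 35.1% to 37.7% of counts in wild-type early embryos and 0.294% to 0.326% in L3 larvae. let-7, which accumulates late in larval life, was at 2.45 and 2.93 CPM (counts per 1000000 miRNA counts) in wild-type late embryos and at 11803 and 13700 CPM in L4 larvae. Both followed the labels between these stages. Larval timing miRNAs had no common rise from early to late embryos. Of 6, 1 was called higher and 2 lower in the edgeR fit given below (median log2 change -0.87), against 28.1% and 15.8% of all strands. A pair of mir-43 libraries stood apart. In wild type replicate 1 let-7 was at 2322 CPM and miR-58 at 283322 CPM, and ebax-1(tm2321);mir-43(M3) replicate 2 had the fewest counts and let-7 at 2170 CPM. Results that rest on these libraries are also given without them.

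The 6 hairpins lie in 3 places (WBcel235). The mir-51 hairpin lies on chromosome IV at 11026013 to 11026112 and that of mir-53 at 11027593 to 11027691, both on the minus strand with 1480 bases between them. The mir-52 hairpin is on the plus strand of chromosome IV at 14034008 to 14034107, 3006316 bases from mir-53, and is overlapped on the opposite strand by the noncoding RNA Y37A1B.335. The hairpins of mir-56, mir-55 and mir-54 lie at 13144691 to 13144787, 13144827 to 13144924 and 13144996 to 13145094 of the X chromosome, within 404 bases on the minus strand, inside an intron of F09A5.3, which is read from the other strand. The annotation also places a mir-55b hairpin opposite mir-55, at 13144830 to 13144919.

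The family made up 16.3% to 43.7% of all miRNA counts over the 59 libraries, with a median of 25.7%. miR-52 was the first or second most abundant strand in all 59, at 89192 to 266281 CPM. The members of the X chromosome cluster followed, with miR-56 ranked 3 to 16, miR-55 ranked 4 to 15 and miR-54 ranked 5 to 17. miR-51 had the widest range of ranks, from 3 to 33, and miR-53, ranked 18 to 46, had the fewest counts of the 6 in every library except wild type replicate 1 of the mir-43 experiment. Ligation and amplification differ between small RNAs, and miR-52 and miR-53 are close in sequence, so the order of the members is that of their counts.

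Through development the family's share of all miRNA counts was highest in late embryos, the last stage before hatching. In wild-type animals it was 30.4% and 30.9% of counts in early embryos, 41.2% and 40.8% in late embryos, and 38.3% and 39.5% in L1 larvae. It was 31.0% and 34.6% in L2, 27.4% and 27.7% in L3, 26.0% and 23.1% in L4, and 22.5% and 22.6% in gravid adults. Germline-depleted adults had 21.2% and 22.0%. Ordered by level, the stages ran late embryo, L1, L2, early embryo, L3, L4, gravid adult and germline-depleted adult, and no neighbours in this order overlapped in their 2 libraries. With 2 libraries against 2, an exact permutation test of a single pair of stages cannot go below p = 0.333, so for these neighbours the order is a description.

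**Figure D1:**
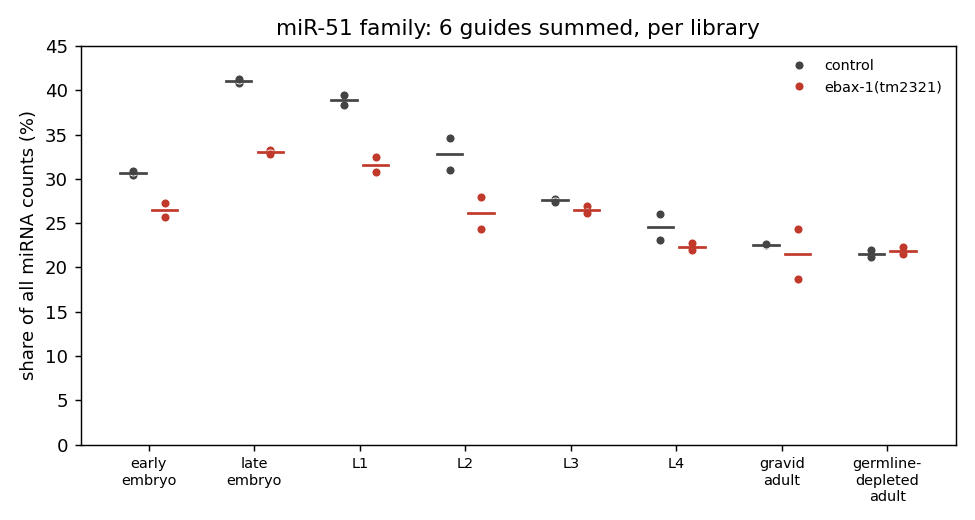
Share of all miRNA counts (%, y axis) taken by the 6 guides of the miR-51 family in each time course library (points, 2 per group) with group means (bars), by stage, for controls and ebax-1(tm2321). Control shares peak in late embryos at 40.8% to 41.2% and are lowest in germline-depleted adults, and the mutant mean lies below the control mean at 7 of 8 stages.

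The members did not follow a common course. miR-51 declined from embryo to L3, whereas miR-53 and the cluster did not (plot of guide levels in control libraries). In wild-type animals miR-51 was at 42578 and 45420 CPM in early embryos, 42784 and 41920 in late embryos and 31840 and 30890 in L1. It was at 17824 and 19458 CPM in L2, 13846 and 14171 in L3, 14334 and 13736 in L4, and 14990 and 10407 in gravid adults. The 2 embryonic stages overlapped, each step from late embryo to L2 to L3 was apart, and L3, L4 and gravid adults overlapped. Within the family, miR-51 went from 14.01% and 14.72% of the 6 guides in early embryos to 4.99% and 5.16% in L3 larvae.

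In an edgeR quasi-likelihood fit of the 14 wild-type libraries, with a threshold of 0.01 on Benjamini-Hochberg adjusted p, miR-51 fell by 0.55 (SE 0.12, adjusted p = 0.0011) on the log2 scale from late embryos to L1. It fell by 0.78 (SE 0.12, adjusted p = 0.00015) from L1 to L2, and fell by 0.56 (SE 0.12, adjusted p = 0.0018) from L2 to L3. Consecutive stages share a group of libraries, and many strands changed at each step: of the 253 strands tested, 27.3%, 10.7% and 19.4% were called lower at these 3 steps. miR-51 was the only guide of the 6 called lower at the first and the second step. The L1 to L2 fall held with each library left out (highest adjusted p = 0.0036). The other 2 did not: from late embryo to L1 the call was lost without late embryo replicate 1 or L1 replicate 2 (highest adjusted p = 0.014) and by DESeq2 (adjusted p = 0.037), and from L2 to L3 without L2 replicate 2 or either L3 library (highest adjusted p = 0.02).

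miR-52, the main member, had its peak in late embryos. It was at 191628 and 186239 CPM in early embryos, 261357 and 266281 in late embryos and 244855 and 239028 in L1 of the wild type. It was at 193830 and 221540 CPM in L2, 165484 and 164347 in L3, 156783 and 133720 in L4, and 116148 and 116245 in gravid adults. Each stage lay apart from the next in these values. In the fit, miR-52 fell by 0.48 (SE 0.11, adjusted p = 0.0028) from L2 to L3, when the family total fell by 0.39 (SE 0.10, adjusted p = 0.0054), and fell by 0.54 (SE 0.11, adjusted p = 0.0011) from L4 to gravid adults, a step at which 27.3% of strands were called lower. The first was lost without L2 replicate 2 or either L3 library (highest adjusted p = 0.034; family total 0.059), and the second without L4 replicate 1 or either gravid adult library (highest adjusted p = 0.29). miR-53 fell by 0.78 (SE 0.13, adjusted p = 0.00017) at the same step, from 8371 and 6938 CPM in L4 to 5019 and 5318 CPM in gravid adults. That call also went without gravid adult replicate 1 (-0.38, adjusted p = 0.066), and in a fit of L4 and gravid adults alone neither guide passed (adjusted p = 0.17 for miR-52 and 0.045 for miR-53).

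miR-54, miR-55 and miR-56 kept close to each other. Over wild-type stages the mean level of miR-54 ranged from 19510 CPM in early embryos to 31792 CPM in L1, that of miR-55 from 23851 to 35451 CPM and that of miR-56 from 23728 to 40370 CPM, all with the lowest value in early embryos and the highest in L1. From early to late embryos 5 of 6 guides were called higher, against 28.1% of all strands. Log2 changes were 0.47 for miR-52, 0.51 for miR-53, 0.52 for miR-54, 0.49 for miR-55 and 0.47 for miR-56, with adjusted p between 0.0012 and 0.0068, and the median over all strands was 0.20. None of these 5 calls was kept without any 1 of the 4 embryo libraries, and DESeq2 called 0 of 6. The family total was 0.41 higher in this fit and 0.12 higher in a fit of the 2 embryo stages alone (adjusted p = 0.48). At L3 to L4 no guide passed (edgeR, 0 of 6, 36.8% of strands called, 2 with unadjusted p under 0.05, DESeq2 0).

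**Figure D2:**
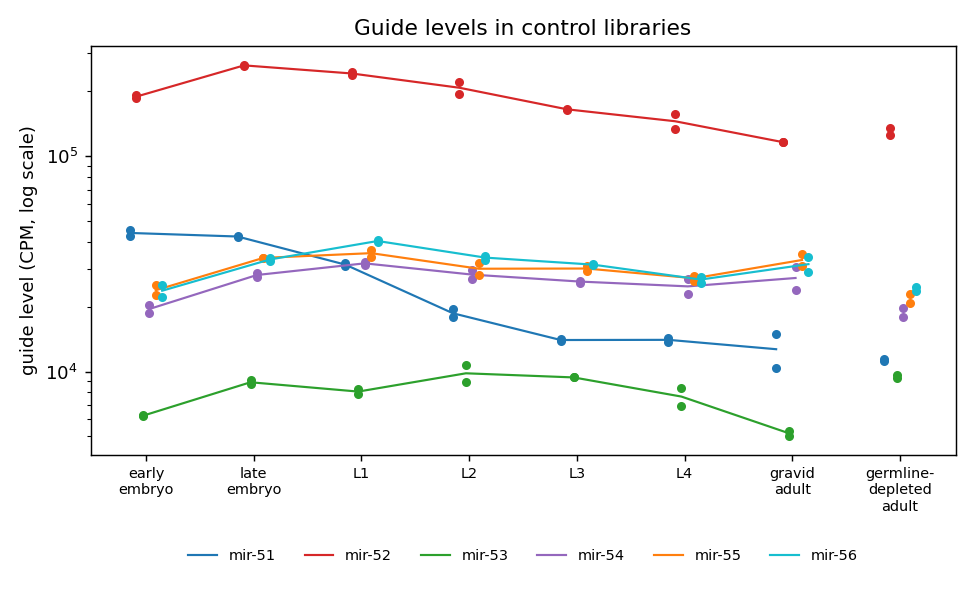
Level of each guide (CPM, log scale, y axis) in the 16 control libraries by stage (points, 2 libraries per stage) with lines through the stage means from early embryo to gravid adult. miR-52 lies above the others at every stage, and miR-51 passes from second place in embryos to below the X chromosome cluster from L1 on.

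Over the 8 control stage means (log2(CPM + 1), 116 strands with at least 100 CPM), the cluster members were like each other, with Pearson's r of 0.961 for miR-54 and miR-55, 0.954 for miR-54 and miR-56 and 0.925 for miR-55 and miR-56. These points share their libraries and their total counts, and the values are a description. miR-51 and miR-52 had an r of 0.825. miR-51 and miR-53, the neighbours on chromosome IV, had an r of -0.07. Outside the family, the strands most like miR-51 were miR-73 (r = 0.967) and miR-49 (0.965), and those most like miR-52 were miR-67 (0.953) and miR-57 (0.936). For miR-53 they were miR-86 (0.774) and miR-1822 (0.681), the lowest values of any member, and for miR-54 they were miR-255 (0.914) and miR-232 (0.884). For miR-55 they were miR-255 (0.927) and miR-232 (0.798), and for miR-56 miR-232 (0.959) and miR-87 (0.949).

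Passenger strands varied over development far more than guides. From late embryos to L1, 5 of 6 fell, against 27.3% of all strands: the log2 change was -3.76 (SE 0.22, adjusted p = 2.9e-09) for miR-52*, -2.76 for miR-54*, -2.21 for miR-51*, -1.77 for miR-56* and -1.12 for miR-55*. The 27.3% covers guides and passenger strands together. Passenger strands of all miRNAs also fell as a group, from 0.89% and 0.85% of counts in wild-type late embryos to 0.49% and 0.53% in L1. miR-52* went from 1753 and 1724 CPM in late embryos to 141 and 138 CPM in starved L1, while miR-52 itself stayed within 239028 to 266281 CPM. From L1 to L2, after feeding began, miR-52* rose by 2.01 (SE 0.20, adjusted p = 2.4e-06) to 628 and 514 CPM, against 19.8% of strands higher. The number of miR-52 guide reads per passenger read was accordingly 149 and 154 in late embryos, 1740 and 1735 in L1, and 309 and 431 in L2. All 5 falls and the rise of miR-52* held with each library left out. miR-51* followed another course, with log2 changes of -1.38 from early to late embryos (15.8% of strands lower), 1.30 from L3 to L4 (20.2% higher) and -1.67 from L4 to gravid adults (adjusted p at most 8.2e-05), each kept with every library left out. Further calls were falls of miR-52* (-1.04) and miR-53* (-1.095) from L2 to L3, of which that of miR-52* was lost without L2 replicate 1 (adjusted p = 0.012), and rises of miR-55* (1.12) and miR-56* (0.89) from L4 to gravid adults (13.8% of strands higher), of which that of miR-56* was lost without L4 replicate 2 (adjusted p = 0.065). In a fit of L4 and gravid adults alone none of the 3 passenger strands passed (adjusted p = 0.019 for miR-51*, 0.014 for miR-55* and 0.075 for miR-56*).

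In germline-depleted adults, miR-53 was at 9361 and 9614 CPM, against 5019 and 5318 CPM in gravid wild type, without overlap. It was called higher by 1.03 (SE 0.22, adjusted p = 0.0088; 6.09% of 230 strands higher), and in ebax-1 mutants the same comparison gave 0.87 (adjusted p = 0.021). The call was lost without any 1 of the 4 libraries (highest adjusted p = 0.066). miR-55* was lower in glp-4(bn2), at 55.0 and 54.2 CPM against 199 and 152 CPM (-1.52, SE 0.25, adjusted p = 0.0030; 13.5% of strands lower), and also in ebax-1 mutants (-1.37, SE 0.25, adjusted p = 0.0066; 9.57% lower), where miR-55* was at 49.2 and 60.8 CPM against 183 and 139 CPM. The first was lost without gravid wild type replicate 1 or either glp-4(bn2) library (highest adjusted p = 0.047), and the second without gravid ebax-1(tm2321) replicate 1 or either ebax-1(tm2321);glp-4(bn2) library (highest adjusted p = 0.052). The remaining 5 guides did not pass in either genotype, and germline, temperature, hours on food and the source of the libraries cannot be told apart here.

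In ebax-1(tm2321) the family's share of counts was lower at 7 of 8 stages. In early embryos it was 27.3% and 25.7%, against 30.4% and 30.9% in the wild type, and in late embryos 33.2% and 32.8%, against 41.2% and 40.8%. L1 mutants had 32.4% and 30.8%, against 38.3% and 39.5%, and L2 mutants 24.3% and 27.9%, against 31.0% and 34.6%. At these 4 stages the genotypes were well apart. In L3 the mutants had 26.9% and 26.1%, against 27.4% and 27.7%, and in L4 22.0% and 22.7%, against 26.0% and 23.1%, again without overlap. Mutant gravid adults, with 18.6% and 24.4%, and germline-depleted mutants, with 21.5% and 22.3%, overlapped their controls, and in the latter the mutant mean was the higher.

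The mean log2 difference of the share over stages was -0.18, or 0.886-fold (exact permutation test within stages, two-sided, p = 0.00023), and stayed between -0.20 and -0.15 with each library left out. A share depends on what else is in the library. miR-35–42, which accumulates in ebax-1 mutants, took 26.8% and 26.5% of counts in mutant late embryos against 17.8% and 17.7%, and 14.2% and 15.4% in mutant L1 against 1.16% and 1.02%. Of the counts outside miR-35–42, the miR-51 family was at 0.948-fold in the mutant (log2 -0.08, exact permutation test within stages, two-sided, p = 0.0096), again lower at 7 of 8 stages. In late embryos these values were 49.6% and 50.1% in the wild type and 45.4% and 44.6% in the mutant. Other miRNAs that the paper called EBAX-1–sensitive, such as miR-43 and miR-71, remain among these counts. What share of the difference they account for was not tested.

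Scaled by trimmed means (TMM), few guides differed between genotypes, all in embryos. In late embryos edgeR called miR-52, miR-51 and miR-53 lower, 3 of 6 guides, against 4.98% of 201 strands. miR-52 was at 210090 and 207787 CPM in the mutant and 261357 and 266281 CPM in the wild type, and fell by 0.16 (SE 0.02, adjusted p = 7.9e-05) on the log2 scale after scaling. miR-51 fell by 0.13 (SE 0.03, adjusted p = 0.0033), miR-53 fell by 0.18 (SE 0.04, adjusted p = 0.0031) and the family total fell by 0.13 (SE 0.02, adjusted p = 0.00018). All 6 guides lay below the wild type in both mutant libraries by CPM, and the median log2 difference after scaling was -0.12 for the 6 guides and -0.01 for all strands. Lower values before TMM were common: scaled by library size, 66 of 201 strands were called lower, with a median of -0.19 over all strands. How many other strands lay below the wild type in both libraries was not counted.

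These late embryo differences are small and depended on which libraries were fitted together. In 1 fit of all time course libraries the log2 differences were -0.053 for miR-51, -0.076 for miR-52 and -0.097 for miR-53. The median over all strands was 0.074 in that fit and -0.005 in the fit of the 4 libraries. Whether spread or scaling accounts for the change was not tested. With all 32 time course libraries in 1 fit, none of the 3 passed (adjusted p = 0.96 for miR-51 and miR-52 and 0.95 for miR-53), and without mutant replicate 2 the number of guides called was 1 and the family total had an adjusted p of 0.01. In early embryos edgeR called miR-56 lower, 1 of 6 guides, against 3.4% of 206 strands: it was at 17840 and 17184 CPM in the mutant and 22239 and 25217 CPM in the wild type (-0.35, SE 0.11, adjusted p = 0.0085). That call was lost without wild-type replicate 2 or either mutant library (highest adjusted p = 0.24).

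At the other 6 stages edgeR called 0 of 6 guides. The strands called in either direction were 8.21% in L1, 8.17% in L2, 11.1% in L3, 5.38% in L4, 0.448% in gravid and 5.83% in germline-depleted adults. At an unadjusted p under 0.05 the count was 1 in L2 and 0 at the other 5, and DESeq2 called 0 at all 6. The log2 differences of the family total were -0.11 ± 0.10 in L1, -0.27 ± 0.20 in L2, 0.07 ± 0.04 in L3, 0.02 ± 0.10 in L4, 0.05 ± 0.21 in gravid and 0.06 ± 0.06 in germline-depleted adults (± SE). With scaling by library size, those of L3, L4 and gravid adults were below 0. In a fit of all stages, the mean ebax-1 effect did not pass for any guide (0 of 6, log2 -0.13 to -0.0028, edgeR lowest adjusted p = 0.24, 0 at an unadjusted p under 0.05, DESeq2 0), against 24.9% of 229 strands. Scaled by library size in place of TMM, which moved the median of all strands from -0.02 to -0.11, 5 of 6 guides and the family total (-0.17, adjusted p = 0.00067) were lower. So were 59 of 229 strands, against 22 with TMM. With TMM the family total of the mean effect was -0.089 to -0.0009 with each library left out.

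**Figure D3:**
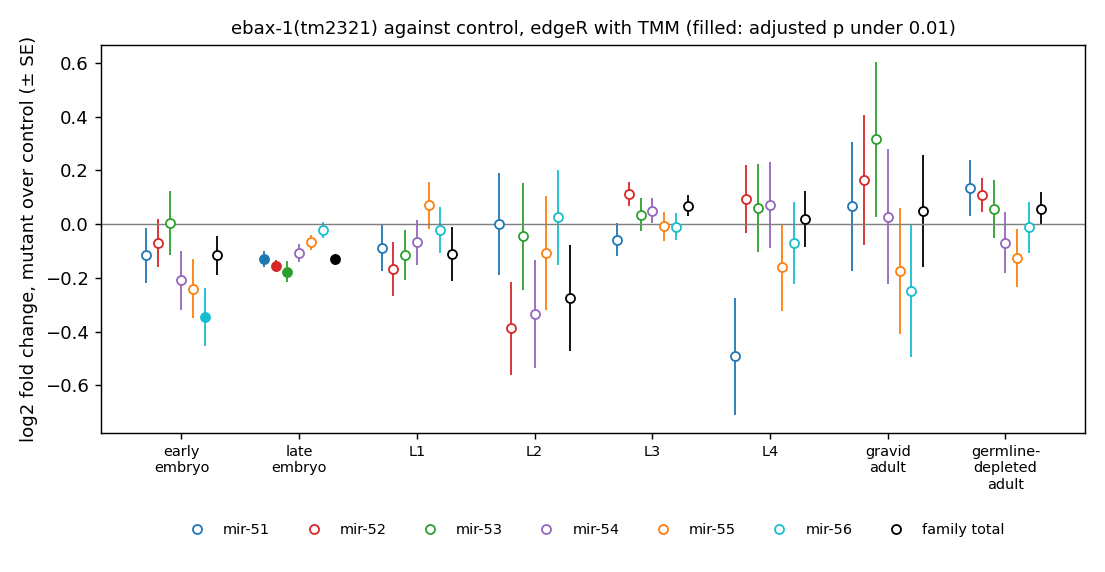
Log2 fold change of ebax-1(tm2321) over control (y axis, points, with SE bars) for each guide and for the family total at 8 stages, from edgeR with TMM. Filled points passed the adjusted p of 0.01: miR-56 in early embryos, and miR-51, miR-52, miR-53 and the family total in late embryos.

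The proportions of the members did not differ detectably between genotypes in the time course. None of the 15 ratios between 2 guides passed an exact permutation test within stages (two-sided, lowest p = 0.058, lowest adjusted p = 0.38), and the mean ratio in the mutant was 0.932- to 1.09-fold that of the control. L4 had the widest single difference seen for miR-51: it was at 7219 and 10728 CPM in the mutant and 14334 and 13736 CPM in the wild type, 3.28% and 4.72% of the family against 5.51% and 5.94%. The 2 genotypes did not overlap, but in edgeR the difference was -0.49 (SE 0.22, adjusted p = 0.18).

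Among the passenger strands, miR-52* was higher in ebax-1(tm2321) over the time course. Its mean log2 difference over the 8 stages was 0.52 (SE 0.09, edgeR adjusted p = 7.5e-05), or 1.43-fold. It was the only strand of the 6 guides and 6 passenger strands that passed in this test, in which 15.3% of 229 strands were called higher. Without each of the 32 libraries in turn the difference was 0.48 to 0.65 (highest adjusted p = 0.0013), and without all early embryo libraries it was 0.47 (adjusted p = 0.0034).

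By stage, miR-52* was at 2537 and 2379 CPM in mutant early embryos against 1541 and 1837 CPM, at 930 and 810 CPM in mutant L2 against 628 and 514 CPM, and at 279 and 276 CPM in germline-depleted mutants against 65.4 and 113 CPM. The genotypes were apart at these 3 stages, with the mutant higher. In L1 it was at 148 and 164 CPM in the mutant against 141 and 138 CPM, and in L3 at 341 and 444 CPM against 283 and 333 CPM. These were apart too, by less. In late embryos the order was the opposite, with 1320 and 1360 CPM in the mutant against 1753 and 1724 CPM (log2 -0.19 after scaling, adjusted p = 0.017). L4 (618 and 355 CPM against 455 and 466 CPM) and gravid adults (777 and 299 CPM against 528 and 294 CPM) overlapped. A single stage passed on its own, early embryos (0.63, SE 0.13, adjusted p = 2.8e-05), and in germline-depleted adults the difference of 1.68 had an adjusted p of 0.031. The test of differences between stages gave an adjusted p of 0.037 for miR-52*, against a threshold of 0.01.

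**Figure D4:**
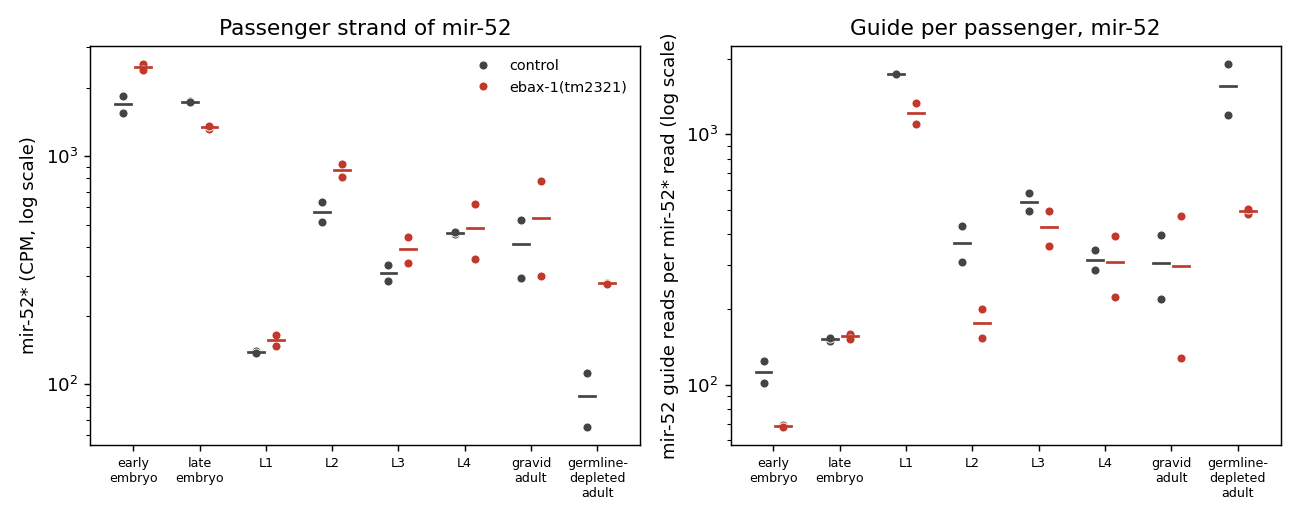
Level of the passenger strand miR-52* (CPM, left) and miR-52 guide reads per miR-52* read (right), both on log scales, in each time course library (points) with group means (bars), by stage and genotype. miR-52* is higher in both mutant libraries than in both controls at 5 of 8 stages and lower in late embryos, and germline-depleted mutants have 483 and 503 guide reads per passenger read against 1910 and 1201.

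miR-52* was not called in the other experiments, and the SEs given are wide beside the time course mean of 0.52. With ebax-1(ju699) in L1 the log2 difference was 0.09 (SE 0.42), and in the L4 larvae of the mir-43 experiment it was 0.02 (SE 0.28) for ebax-1(tm2321) alone, 0.02 in M1, -0.31 in M2 and 0.03 in M3, none past the threshold.

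In early embryos more passenger strands of the family were higher than at any other stage. edgeR called 4 of 6 of the family's higher, against 15.5% of 206 strands: miR-56* by 1.00 (SE 0.15, adjusted p = 9.1e-09), miR-51* by 0.73 (SE 0.14, adjusted p = 7.4e-06), miR-52* by 0.63 and miR-53* by 0.55 (SE 0.17, adjusted p = 0.0085). miR-56* was at 519 and 494 CPM in the mutant and 281 and 259 CPM in the wild type, and all 6 passenger strands lay above the wild type in both mutant libraries by CPM. How many passenger strands of other hairpins did so was not counted, and the 15.5% covers guides and passenger strands together. Passenger strands of all miRNAs together took 1.59% and 1.70% of counts in these mutant libraries and 1.21% and 1.27% in the wild type, and lin-4, which rises after hatching, was at 0.745 and 1.47 CPM in the mutant and 38.5 and 28.9 CPM in the wild type. Whether the 2 sets of early embryos differed in age was not tested. All 4 calls were lost when either mutant library was left out, with adjusted p up to 0.15 for miR-51*, miR-52* and miR-56* and 0.48 for miR-53*, that of miR-52* also without wild-type replicate 1 (0.018) and that of miR-53* without wild-type replicate 2 (0.15). With all time course libraries in 1 fit none of the 4 passed (adjusted p = 0.033 to 0.28), and with the replicate number as a block those of miR-52* (0.021) and miR-53* (0.079) were lost.

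The guide-to-passenger ratio, which does not depend on the scaling between libraries, was lower in mutant early embryos for all 6 hairpins (limma on log2 ratios, adjusted p at most 0.0017), against 45.8% of 72 hairpins. It was 34.6 in the mutant and 88.4 in the wild type for miR-56 (log2 -1.34, SE 0.14) and 68.7 against 113 for miR-52 (log2 -0.71, SE 0.16). Leaving out wild-type replicate 2 or mutant replicate 2 left 5 of 6, without miR-53 (adjusted p = 0.10 and 0.21), and leaving out either other library left 6.

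The ratio for miR-52 was also lower in mutant L1 (1218 against 1738, log2 -0.52, adjusted p = 0.0052; 4.41% of hairpins lower), L2 (177 against 370, log2 -1.05, adjusted p = 0.0013; 12.3% lower) and germline-depleted adults (493 against 1556, log2 -1.61, adjusted p = 0.035; 4.29% lower). In late embryos it was 156 against 152, and in L3, L4 and gravid adults it did not pass. For miR-54 it was lower in L2 (147 against 294, adjusted p = 0.043), and for miR-53 lower in L3 (136 against 226, adjusted p = 0.036; 2.6% lower) and higher in L1 (177 against 108, adjusted p = 0.00058; 22.1% higher). miR-56 was higher in late embryos (114 against 93.8, adjusted p = 0.024; 30.6% higher). None of the calls at these 5 stages held with every library left out. They were lost without late embryo wild type replicate 2 or either late embryo mutant library (highest adjusted p = 0.34), without either L1 mutant library (0.45; miR-52 also without L1 wild type replicate 1, 0.15), without L2 wild type replicate 2 (0.47; miR-54 also without L2 wild type replicate 1 or mutant replicate 1), without any L3 library (0.16) and without either germline-depleted mutant library (0.23).

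miR-53* was the only strand of the family whose ebax-1 effect differed between stages (edgeR F-test, adjusted p = 0.0025; 11.4% of 229 strands called). In L3 it was higher, at 64.8 and 64.9 CPM in the mutant and 43.7 and 39.7 CPM in the wild type (0.76, SE 0.10, adjusted p = 0.0084; 8.29% of 217 strands higher). In L1 it was at 40.0 and 34.1 CPM in the mutant and 68.3 and 82.1 CPM in the wild type (-0.84, adjusted p = 0.017). Both stages were apart, in opposite directions. The L3 call was lost without either wild-type library or mutant replicate 2 (highest adjusted p = 0.10). For the difference between stages, leaving out single libraries gave adjusted p of 0.0018 to 0.058, with the call lost without 10 of the 32: L1 wild type replicate 2, either mutant library of L1, L2 or L3, either gravid wild-type library, or germline-depleted mutant replicate 2. It was also lost with the replicate number as a block (adjusted p = 0.026).

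In L1 larvae with ebax-1(ju699), the family took 39.8% and 38.7% of counts, against 41.4% and 43.7% in their wild type. miR-51 was at 47307 and 47987 CPM in the mutant and 36780 and 41508 CPM in the wild type, the only guide with both mutant libraries above both controls, and made up 11.9% and 12.4% of the family against 8.88% and 9.50%. How many strands outside the family lay above both controls was not counted. miR-51 did not pass (0.58, SE 0.13, adjusted p = 0.069). edgeR called 0 of 6 guides, against 4.65% of 215 strands, with 1 at an unadjusted p under 0.05 and 0 by DESeq2. In ebax-1(tm2321) L1 larvae miR-51 was at 26591 and 25214 CPM, below 31840 and 30890 CPM of that wild type, and the difference between the alleles was 0.66 (SE 0.16, adjusted p = 0.12; 0% of 212 strands called). The family total differed by 0.18 ± 0.09 (SE, adjusted p = 0.39), and passed only without wild-type replicate 2 (0.26, adjusted p = 0.0062).

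In L4 larvae of the mir-43 experiment the family's share was 24.9% and 25.8% in ebax-1(tm2321), against 16.3%, 24.6% and 21.8% in wild type, where the lowest value is that of the replicate that stood apart. With M1 it was 25.7%, 24.5% and 21.8% in ebax-1(tm2321) and 26.0%, 22.5% and 25.7% without the ebax-1 mutation. With M2 it was 25.7%, 23.9% and 24.1% against 27.5%, 25.2% and 25.7%, and with M3 27.5%, 26.9% and 25.9% against 23.04%, 22.6% and 25.3%. Mutants lay above their controls with wild-type mir-43 and with M3, and overlapped them with M1 and M2. Between libraries of the same replicate number, the mutant was lower in 3 of 3 pairs with M2, higher in 3 of 3 with M3 and higher in 1 of 3 with M1. The mean log2 difference was 0.09 (exact permutation test within the 4 forms, two-sided, p = 0.25), and 0.04 to 0.12 with each library left out. With labels exchanged within these pairs the exact p was 0.27.

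edgeR called 0 of 6 guides in all 7 contrasts of this experiment. The strands called in either direction were 5.43% of 221 for ebax-1(tm2321) against wild type, 0.452%, 1.81% and 1.81% for M1, M2 and M3 against wild type, and 8.14%, 7.24% and 15.4% for ebax-1(tm2321) within M1, M2 and M3. With the replicate number as a block the last 3 were 16.7%, 12.7% and 20.8%, again with 0 of 6 guides. At an unadjusted p under 0.05 the counts were 2, 2, 3, 2, 0, 0 and 1 in that order, and DESeq2 called 1, miR-52, in the first contrast and 0 in the others. In that contrast miR-52 was at 150941 and 140968 CPM in the mutant and 89192, 123047 and 106921 CPM in wild type (0.61, SE 0.15, edgeR adjusted p = 0.011), and the family total differed by 0.43 (SE 0.12, adjusted p = 0.019). Without wild type replicate 1, which stood apart, these were 0.53 (adjusted p = 0.028) and 0.31 (adjusted p = 0.052), and 0 of 6 guides passed in any of the 7 contrasts without both libraries that stood apart. Without wild type replicate 2 both passed (0.72, adjusted p = 0.0043, and 0.56, adjusted p = 0.0028).

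**Figure D5:**
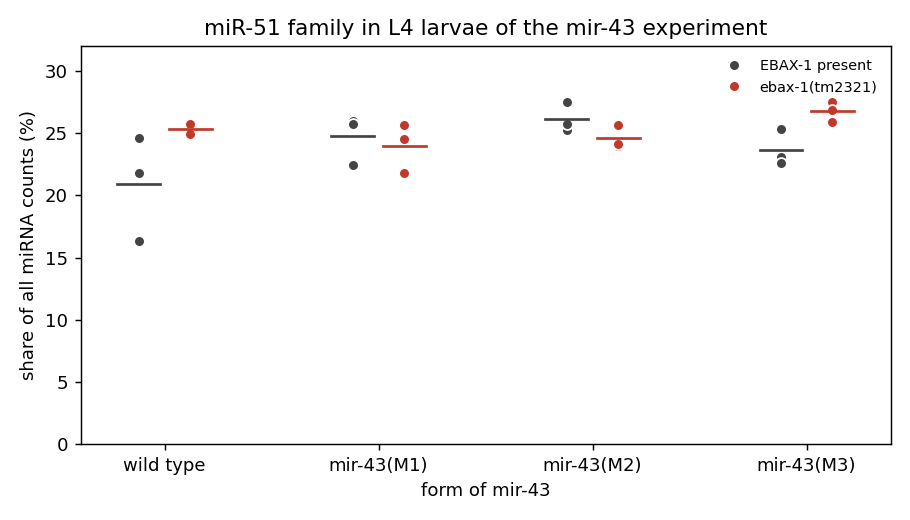
Share of all miRNA counts (%, y axis) of the miR-51 family in the 23 L4 libraries of the mir-43 experiment (points) with group means (bars), by form of mir-43 (x axis) and presence of EBAX-1. The wild-type library at 16.3% stands below all others, which lie between 21.8% and 27.5%.

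Within this experiment, the ratio of miR-52 to each of miR-53, miR-54, miR-55 and miR-56 was higher with ebax-1(tm2321) in all 4 forms of mir-43, by 1.12-, 1.097-, 1.13- and 1.18-fold on average, and that of miR-51 to miR-52 was lower in all 4, at 0.864-fold. None of the 15 ratios passed after adjustment (exact permutation test within forms, two-sided, lowest p = 0.0058, lowest adjusted p = 0.066). With labels exchanged within same-numbered pairs of M1, M2 and M3, 2 of 15 passed, miR-52 to miR-53 (adjusted p = 0.026) and miR-52 to miR-54 (adjusted p = 0.028). Without the 2 libraries that stood apart, 7 of 15 passed: miR-51 to miR-52 was 0.814-fold (adjusted p = 0.016), and miR-52 was 1.11-fold against miR-53, 1.12-fold against miR-54, 1.21-fold against miR-55 and 1.27-fold against miR-56 (adjusted p = 0.019 to 0.025), with miR-53 1.09-fold against miR-55 and 1.14-fold against miR-56 (adjusted p at most 0.036). Leaving out ebax-1(tm2321);mir-43(M3) replicate 2 alone gave 5 of 15, ebax-1(tm2321);mir-43(M2) replicate 3 or mir-43(M2) replicate 1 gave 2, wild type replicate 1 or mir-43(M1) replicate 1 gave 1, and each of the others gave 0. In the time course the ratios of miR-52 to miR-54, miR-55 and miR-56 were higher in the mutant at 5 of 8 stages, that of miR-52 to miR-53 at 4 of 8 (0.962-fold on average) and that of miR-51 to miR-52 at 4 of 8 (0.968-fold). In L4 the lower miR-51 described above gave 0.0518 and 0.0770 miR-51 per miR-52 in the mutant against 0.0914 and 0.103.

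Other miRNA groups, read over the same mean effect of ebax-1(tm2321) in the time course, gave a scale for these values. Of the miR-58 family, also abundant and broadly expressed, 0 of 5 tested strands passed, with a median log2 difference of -0.19, beside -0.10 for the miR-51 family and -0.02 for all strands. Among miRNAs of larval timing such as lin-4 and let-7, 0 of 6 passed (median 0.01). Of miR-35–42 and miR-70, listed for embryo and germline and including targets the study selected on these samples, 8 of 9 were higher and 1 lower (median 2.54). Of 3 neuronal miRNAs 2 were lower (median -0.37), and miR-1 of muscle and miR-60 of intestine did not pass (0.02 and -0.40). In this test 35 of 229 strands were called higher and 22 lower.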

How the data were processed

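sRNA-seq of whole animals was read from 1 deposited table of miRNA counts for 59 libraries, with 310 strands, 7 of them variants of the mir-43 experiment. Per the labels and the methods, the authors trimmed reads with cutadapt (version not stated), filtered them by quality, assigned each by its 5′ stretch of fixed length to an entry of a curated miRNA dictionary (WBcel235) and deposited the table without the spike-in rows. Scaling was therefore by miRNA counts alone, and members that differ only after that stretch would be merged. The deposited piRNA counts were not used.

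CPM are counts per 1000000 miRNA counts. Counts were tested by the quasi-likelihood F-test of edgeR 4.0.16 in R 4.3.3 (TMM, Benjamini-Hochberg adjustment over all strands, threshold 0.01), after dropping those whose control mean of CPM + 1 was under 5. Each time course stage and the ju699 experiment had a fit of its own, with single fits of the 23 mir-43 libraries, the 14 wild-type libraries, the 8 adult libraries and all 32 time course libraries. The family total is the sum of the 6 guides with unchanged scaling factors. Guide-to-passenger ratios (CPM + 1) were tested with limma 3.58.1 (threshold 0.05). Family shares and the 15 ratios between guides were tested by exact permutation within stages (1679616 relabellings) or forms of mir-43 (80000, or 5120 with the pairs kept), with adjustment over the 15.

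The methods call the libraries biological replicates. The main fits left out the replicate number. Deviations of same-numbered libraries correlated above 0.1 in every pair for mir-43(M3) against wild type and for ebax-1 within M1, M2 and M3 (0.109 to 0.712), where the number was taken to pair the libraries and the block changed no call of a member but raised the share of all strands called for ebax-1 (given beside those results). Named with full statistics was every guide or passenger strand of the 6 hairpins past a threshold, and by count the lists for the miR-58 family, larval timing, embryo and germline, neurons, muscle and intestine. Members and lists were chosen with earlier results of these data known. Alternatives were DESeq2 1.42.0, library-size scaling, TMM without the family, no filter, other thresholds and pseudocounts, the replicate block, fits of other groups, and each library left out. Python 3.11.15 and matplotlib 3.10.9 prepared tables and figures.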

Additional observations from a re-analysis of the deposited data

Results flagged for a closer look

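The effect of ebax-1(tm2321) on miR-53* differed between stages in a test of the difference itself (edgeR F-test, adjusted p = 0.0025), a call lost with the replicate number as a block (adjusted p = 0.026). It was called higher in L3 and had lower values in both mutant libraries in L1, as described above.

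In the mir-43 experiment, miR-54 was higher in both ebax-1(tm2321) libraries than in all 3 wild-type libraries (log2 difference 0.47, edgeR adjusted p = 0.037), and with mir-43(M2) it was lower in all 3 ebax-1(tm2321) libraries than in all 3 controls by CPM (log2 difference -0.024 after scaling). The median log2 differences over all 221 strands were -0.038 in the first contrast and -0.029 with mir-43(M2), so with mir-43(M2) miR-54 lay near the median. How many other strands were apart by CPM was not counted. The difference between these contrasts was not tested. In wild type the lowest miR-54 level, 15528 CPM, was that of replicate 1, which stood apart, and the other 2 were at 24302 and 22501 CPM against 25331 and 26442 CPM in the mutant. Without that replicate the log2 difference was 0.33 (adjusted p = 0.11).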

How the results depend on the processing

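The higher miR-52* over the time course, the fall of miR-51 from L1 to L2 and the lower family share of all counts kept their direction and their side of the threshold under all alternatives run. With library size in place of TMM, family totals were -0.057 in L3, -0.14 in L4, -0.069 in gravid adults, -0.12 with ju699, -0.044 and -0.088 for ebax-1 in M1 and M2, and -0.066 for glp-4(bn2), all opposite in sign to TMM and none past the threshold. It gave -0.21 in early embryos (adjusted p = 0.0048), -0.17 for the mean over stages and -0.25 from L2 to L3, with 2, 6 and 5 guides lower in early embryos, late embryos and the mean, 0 from L2 to L3 and from late embryo to L1, 1 from L4 to gravid adult, and 0 higher in glp-4(bn2). Of all strands, 13, 66 and 59 were called lower with this scaling in early embryos, late embryos and the mean, against 7, 10 and 22 with TMM. With DESeq2, family totals were 0.14 from early to late embryo (0 guides higher), 0.038 from late embryo to L1 (opposite in sign, 1 guide higher, 0 lower), -0.46 from L1 to L2 (4 lower), -0.27 from L2 to L3 (1 lower), 0.039 from L3 to L4 (opposite in sign) and -0.14 in mutant late embryos (adjusted p = 0.027), with 1 guide higher for ebax-1 in the mir-43 experiment. Without a filter, they were 0.22 (0 higher) from early to late embryo, -0.46 (2 lower) from L1 to L2, -0.27 (0 lower) from L2 to L3 and -0.024 in mutant L4 (opposite in sign), with 1 guide lower from L4 to gravid adult and 0 in mutant early embryos. Fits of the 2 groups compared gave 0.12 (0 higher, 1 lower), -0.25 (1 lower) from L2 to L3, 2 lower from late embryo to L1 and 0 from L4 to gravid adult. TMM factors from strands outside the family gave -0.030 in mutant L4 (opposite in sign) and 0 guides lower in early embryos. In 1 fit of all time course libraries, 0 guides were lower in early and late embryos and the late embryo total was -0.052. Pseudocount 10 left 1 hairpin with a lower ratio in L2. Without the 2 libraries that stood apart, 7 of 15 ratios passed. The cause of these differences was not tested.

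With the replicate number as a block, 0 guides were lower in early embryos, the late embryo total was -0.13 (adjusted p = 0.019), 2 guides were lower there (miR-51 had an adjusted p of 0.011), 1 guide was higher for ebax-1 in the mir-43 experiment (miR-52, adjusted p = 0.0058), 2 of 15 ratios passed there, and no other count of guides changed. Of the passenger strands, 2 were higher in early embryos, 1 was lower in L1, and miR-53* did not pass the test of differences between stages (adjusted p = 0.026). Each stage has only 2 pairs. Deviations of same-numbered libraries correlated at -0.24 in early embryos and -0.44 in L3, and crossed pairing gave 2 guides lower in early and 1 in late embryos.

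Leaving out each library gave family totals of -0.16 to -0.11 in mutant late embryos, -0.028 to 0.063 in L4, -0.19 to 0.29 in gravid adults, 0.094 to 0.26 with ju699, 0.31 to 0.56 for ebax-1 in the mir-43 experiment, -0.045 to 0.047 in M2, and -0.032 to 0.46 for glp-4(bn2) in ebax-1 mutants. From early to late embryo they were 0.11 to 0.44, from L2 to L3 -0.47 to -0.32 and from L4 to gravid adult -0.40 to 0.030. Guides lower numbered 0 to 1 in mutant early embryos, 1 to 4 in late embryos, 0 to 1 from late embryo to L1, 1 to 2 from L1 to L2, 0 to 2 from L2 to L3 and 0 to 2 from L4 to gravid adult. Guides higher numbered 0 to 1 with ju699, with ebax-1 in the mir-43 experiment, from L4 to gravid adult and for glp-4(bn2) in ebax-1 mutants, and 0 from early to late embryo and for glp-4(bn2) in the wild type. The number of guides that differed between stages was 0 to 1. Hairpins with a lower ratio numbered 0 to 1 in L1, L4 and germline-depleted adults, 0 to 2 in L2 and 0 in L3, and with a higher ratio 0 to 1 in late embryos and L4 and 0 to 3 in L1. Ratios between guides that passed in the mir-43 experiment numbered 0 to 5.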
